A study of Mus musculus with 8 samples.

Results

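Tuft cell genes were followed in the small intestine of mice given a glucocorticoid, a gamma-secretase inhibitor or both. The genes were Dclk1, Trpm5, Ptgs1, Alox5ap, Ltc4s and Pou2f3, and the members were all probe sets that the platform annotation used here assigns to them. Of 22690 probe sets, 11 belonged to 5 of the 6 genes: 6 to Dclk1, 2 to Trpm5 and 1 each to Alox5ap, Ltc4s and Pou2f3. No probe set was named for Ptgs1 in that annotation, so Ptgs1 was not analysed here. The animals were female C57/Black6 mice, 6 weeks old, injected into the peritoneum every day for 5 days. The combination group received dexamethasone at 15 mg/kg with DBZ at 10 umol/kg, the DBZ group 10 umol/kg of DBZ, the dexamethasone group 15 mg/kg of dexamethasone, and the vehicle group DMSO. Dexamethasone is a synthetic glucocorticoid, and DBZ blocks gamma-secretase, the protease that releases the active fragment of Notch receptors. The combination, dexamethasone and vehicle groups had 2 arrays each. The DBZ group had 1, because the values of its 2 columns were the same for 22684 probe sets and not for 6. The labels do not say which segment of the small intestine was taken.

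Tuft cells are rare chemosensory cells of the intestinal epithelium. They sense luminal metabolites and parasites through the pathway also used by taste cells, in which a G protein and phospholipase C release calcium and open the cation channel Trpm5. In response they release interleukin 25, which acts on group 2 innate lymphoid cells, and lipid mediators made from arachidonic acid. The transcription factor Pou2f3 is required for tuft cells to form, and the microtubule-associated kinase Dclk1 is the marker by which they are usually stained in the mouse intestine. Alox5ap presents arachidonic acid to 5-lipoxygenase, Ltc4s joins glutathione to leukotriene A4 to make leukotriene C4, and Ptgs1 (cyclooxygenase 1) makes the precursor of the prostaglandins. Alox5ap and Ltc4s are also expressed in mast cells and myeloid cells, so neither is confined to tuft cells.

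The sequences before the transcription starts are shown for the tested members with an entry in the RefSeq table used here, because these genes were compared across treatments that act through transcription factors. Dclk1 has 2 starts in the table, 219364 bases apart, and the array values cannot be assigned to either. Each sequence is the 250 bases before a RefSeq start on build GRCm38.p6, written 5′ to 3′ on the gene's strand, with the 40 bases next to the start in capitals. The first Dclk1 stretch lies at chr3:55242114-55242363, plus strand, the second at chr3:55461478-55461727, plus strand, that of Trpm5 at chr7:143094643-143094892, minus strand, and that of Ltc4s at chr11:50238533-50238782, minus strand. Alox5ap and Pou2f3 are named only.
Dclk1, first start: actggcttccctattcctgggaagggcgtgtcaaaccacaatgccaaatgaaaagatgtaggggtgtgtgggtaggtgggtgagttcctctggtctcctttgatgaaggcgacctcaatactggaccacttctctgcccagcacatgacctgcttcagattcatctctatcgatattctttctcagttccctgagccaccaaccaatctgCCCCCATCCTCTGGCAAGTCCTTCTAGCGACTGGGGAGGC
Dclk1, second start: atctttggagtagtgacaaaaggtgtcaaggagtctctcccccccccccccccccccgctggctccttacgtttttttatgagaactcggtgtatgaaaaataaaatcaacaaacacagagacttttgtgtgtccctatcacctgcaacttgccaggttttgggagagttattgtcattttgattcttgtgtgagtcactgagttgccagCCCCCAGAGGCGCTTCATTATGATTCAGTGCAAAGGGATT
Trpm5: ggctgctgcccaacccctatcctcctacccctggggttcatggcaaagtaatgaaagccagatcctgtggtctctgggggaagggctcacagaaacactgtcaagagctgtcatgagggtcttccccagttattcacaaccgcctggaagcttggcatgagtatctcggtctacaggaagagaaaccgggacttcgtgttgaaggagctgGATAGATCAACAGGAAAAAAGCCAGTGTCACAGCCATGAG
Ltc4s: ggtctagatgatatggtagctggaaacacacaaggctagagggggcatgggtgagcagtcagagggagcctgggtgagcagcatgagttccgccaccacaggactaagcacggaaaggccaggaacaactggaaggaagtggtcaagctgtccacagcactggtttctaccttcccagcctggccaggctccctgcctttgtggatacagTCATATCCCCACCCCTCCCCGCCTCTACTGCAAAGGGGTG
Windows of 300 bases, made of these stretches and the 50 bases after each start, were searched on both strands, with that of Ptgs1 as the fifth window. The octamer ATGCAAAT, bound by POU factors, was in 0 of the 5 windows and in 1.74% of 32851 promoters of the same length. The glucocorticoid receptor element, GNACA and TGTNC with 3 bases between them, was in 0 of 5 and in 0.475% of promoters. GTGGGAA, the site of the Notch effector RBPJ, was in 0 of 5 and in 6.38% of promoters. These counts say only that the letters are not in these windows.

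Signals are MAS5 intensities per probe set, scaled here so that every array had a trimmed mean of 250. As deposited, the treated arrays had trimmed means of 248 to 249, against 497 in both vehicle arrays. The vehicle arrays also stood apart in content. Spearman's rho over the tested probe sets was 0.892 to 0.928 between treated and vehicle arrays, 0.939 to 0.972 between arrays of different treated groups, and 0.960 to 0.970 within groups. Genes of the distal intestine, such as the bile acid carrier Fabp6, summed to 10258 to 12898 in the combination arrays, 26538 in the DBZ array and 15559 to 24048 in the dexamethasone arrays, against 3151 to 3658 in the vehicle arrays. Genes of the proximal intestine summed to 1084 to 1807 in the combination arrays, 1224 in the DBZ array and 686 to 1216 in the dexamethasone arrays, against 12445 to 15525 in the vehicle arrays. Every comparison with vehicle therefore carries a difference in markers of gut position, and treatment and position cannot be told apart. The treated groups also differed in these markers. All 6 tested distal genes had lower means in the combination than with either drug alone. In the interaction of dexamethasone and DBZ all 6 were lower and 6 of 7 tested proximal genes higher (limma, adjusted p under 0.05, 4.01% of all tested). Comparisons among the treated groups and the interaction are therefore not free of position. The DBZ array had the highest ratio of 3′ to 5′ signal, 1.80 for Gapdh against 0.905 to 1.22 in the other arrays and 2.17 for beta-actin against 1.22 to 1.79, a measure of RNA quality. The part of these differences in the results was not tested.

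The tested probe sets of Dclk1 (1 of its 6), Trpm5 (1 of its 2) and Alox5ap had their lowest group means in mice given both drugs and their highest in vehicle mice, whereas Ltc4s had its highest mean in mice given both drugs. Alox5ap fell in the combination group against vehicle, with a log2 difference of -1.36 ± 0.35 (SE), and was the only tested member past the threshold in any comparison, an adjusted p of 0.05 in limma. Dclk1 and Trpm5 differed by -1.27 ± 0.34 and -1.07 ± 0.32 in the same comparison and missed it. For Ltc4s the log2 difference between combination and vehicle was 0.20 ± 0.21. In whole tissue, fewer tuft cells and less RNA per cell cannot be told apart.

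Most member probe sets were dim. Only 4 of the 11 probe sets, 1 each for Dclk1, Trpm5, Alox5ap and Ltc4s, had a mean signal over the filter of 39.14 and were tested among 13637 probe sets. The remaining 7 are given as signals, with no test. The filter took the mean over all arrays, vehicle included. The tested Dclk1 and Trpm5 probe sets had means of 46.2 and 42.4 over all arrays, and vehicle means of 73.7 and 69.4. Both passed the filter through their high vehicle arrays, which favours differences below vehicle among the tested members. A log2 change is on the scale of log2(signal + 12.46), which understates changes of dim probe sets.

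**Figure D1:**
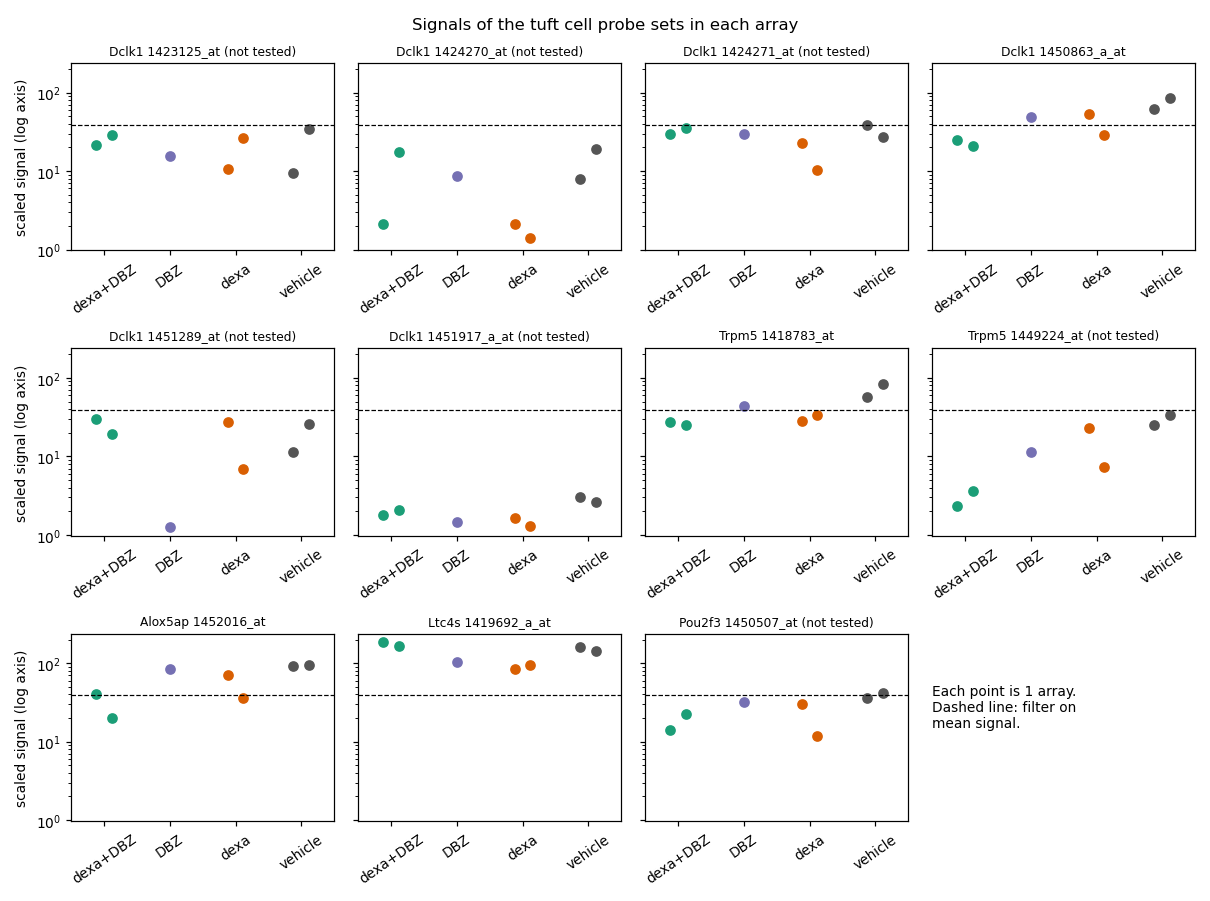
Scaled signal (log axis) of each of the 11 tuft cell probe sets in the combination (dexa+DBZ), DBZ, dexamethasone (dexa) and vehicle groups; each point is 1 array and the dashed line is the filter on mean signal of 39.14. The Alox5ap probe set reads 20.1 and 40.1 in the combination arrays and 93.2 and 94.2 in the vehicle arrays, while Ltc4s reads 165 and 185 in the combination arrays and 142 and 159 in the vehicle arrays.

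Alox5ap (1452016_at), the activating protein of leukotriene synthesis, had signals of 40.1 and 20.1 in the combination arrays, 84.0 in the DBZ array and 70.5 and 35.8 in the dexamethasone arrays, against 93.2 and 94.2 in the vehicle arrays. All 5 treated arrays lay below both vehicle arrays, and the combination and dexamethasone arrays overlapped each other. Means were 30.1 ± 14.1 in the combination group, 53.1 ± 24.5 in the dexamethasone group and 93.7 ± 0.722 in the vehicle group (SD, n = 2 each). Against vehicle, the combination gave -1.36 ± 0.35 (adjusted p = 0.0463), with a 95% interval of -2.14 to -0.57, and was lower in both arrays. Dexamethasone alone gave -0.75 ± 0.35 (adjusted p = 0.208) and DBZ alone -0.14 ± 0.43 (adjusted p = 0.874). These 3 comparisons share the vehicle arrays. Against DBZ the combination gave -1.22 ± 0.43 (adjusted p = 0.291), and against dexamethasone -0.61 ± 0.35 (adjusted p = 0.623). Leaving out combination array 1 ended the call with vehicle (-1.70, adjusted p = 0.0847), as did leaving out combination array 2 (-1.01, adjusted p = 0.238), vehicle array 1 (-1.37, adjusted p = 0.130) or vehicle array 2 (-1.35, adjusted p = 0.139). It also ended with a pseudocount of 1, no filter or no intensity trend in the fit, and the adjusted p ranged from 0.000597 to 0.238 over 16 alternatives.

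Ltc4s (1419692_a_at), leukotriene C4 synthase, was over the filter on every array. Its signals were 185 and 165 in the combination arrays, 103 in the DBZ array and 85.3 and 94.4 in the dexamethasone arrays, against 159 and 142 in the vehicle arrays. The arrays of mice given 1 drug were all below those of the vehicle group, and those of mice given both were all above it. Means were 175 ± 14.4 in the combination group, 89.9 ± 6.41 in the dexamethasone group and 150.4 ± 11.5 in the vehicle group (SD, n = 2 each). Dexamethasone gave -0.67 ± 0.21 against vehicle (adjusted p = 0.0681) and DBZ -0.50 ± 0.26 (adjusted p = 0.252). The combination differed from vehicle by 0.20 ± 0.21 (adjusted p = 0.600), with an interval of -0.27 to 0.67. Against the single drugs it gave 0.87 ± 0.21 over dexamethasone (adjusted p = 0.229, 95% interval 0.40 to 1.34) and 0.70 ± 0.26 over DBZ (adjusted p = 0.315). The interaction, which is the combination's difference from dexamethasone minus that of DBZ from vehicle, was 1.37 ± 0.33 (limma, unadjusted p = 0.00215, adjusted p = 0.0516), with an interval of 0.63 to 2.11. It passed the threshold in 4 of 13 alternatives, with adjusted p from 0.00189 to 0.149. The 4 were intensities as deposited, quantile normalisation, a pseudocount of 1 and both DBZ columns as separate arrays. The last counts 1 array as 2, and as deposited the median interaction over all tested probe sets shifted to 0.95. Passing in these 2 settings is therefore no support. On intensities as deposited, without the scaling, the combination's difference from vehicle turned to -0.74, while the median over all tested probe sets shifted to -0.99. Markers of gut position also differed in the interaction, and their part in the Ltc4s values was not tested.

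Trpm5, the calcium-activated channel of taste-type signalling, had 2 probe sets. The tested one (1418783_at) had signals of 27.1 and 24.8 in the combination arrays, 44.2 in the DBZ array and 27.9 and 34.1 in the dexamethasone arrays, against 56.3 and 82.5 in the vehicle arrays. Every treated array was below both vehicle arrays, and the DBZ array was the closest of them to vehicle. Means were 25.9 ± 1.64 in the combination group, 31.0 ± 4.36 in the dexamethasone group and 69.4 ± 18.5 in the vehicle group (SD, n = 2 each). The log2 difference from vehicle was -1.07 ± 0.32 in the combination (adjusted p = 0.0710), -0.51 ± 0.39 with DBZ (adjusted p = 0.438) and -0.90 ± 0.32 with dexamethasone (adjusted p = 0.0994). The combination lay -0.56 ± 0.39 from DBZ (adjusted p = 0.615) and -0.18 ± 0.32 from dexamethasone (adjusted p = 0.899). The other Trpm5 probe set (1449224_at), not tested, read 2.32 and 3.62 in the combination arrays, 11.3 in the DBZ array and 22.9 and 7.31 in the dexamethasone arrays, against 25.1 and 33.2 in the vehicle arrays. It had the same order of combination below vehicle, and the log2 values of the 2 probe sets had a Pearson r of 0.77 over the 7 arrays, which share their tissue and scaling.

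Dclk1, the kinase used as the histological marker of tuft cells, was over the filter in 1 of its 6 probe sets (1450863_a_at). That probe set read 25.1 and 20.9 in the combination arrays, 48.3 in the DBZ array and 53.2 and 28.6 in the dexamethasone arrays, against 61.4 and 86.0 in the vehicle arrays. All treated arrays were below both vehicle arrays, and the combination arrays were the lowest. Means were 23.0 ± 2.98 in the combination group, 40.9 ± 17.4 in the dexamethasone group and 73.7 ± 17.4 in the vehicle group (SD, n = 2 each). Against vehicle, the combination gave -1.27 ± 0.34 (adjusted p = 0.0525), DBZ -0.49 ± 0.42 (adjusted p = 0.495) and dexamethasone -0.72 ± 0.34 (adjusted p = 0.216). The combination's difference passed the threshold in 6 of 16 alternatives, including the fits without dexamethasone array 1 (adjusted p = 0.0478) or 2 (adjusted p = 0.0451), and its adjusted p ranged from 0.000713 to 0.211. The 6 also include intensities as deposited, where the median over all tested probe sets shifted to -0.99, and both DBZ columns as separate arrays, which counts 1 array as 2. This probe set passed the filter through its vehicle arrays, so these passes are no support for a fall. Set against the single drugs, the combination gave -0.78 ± 0.42 against DBZ (adjusted p = 0.491) and -0.55 ± 0.34 against dexamethasone (adjusted p = 0.645).

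The remaining 5 Dclk1 probe sets were under the filter and differed in pattern. Over the 7 arrays, 1423125_at ranged from 9.57 to 34.2, 1424270_at from 1.39 to 18.9, 1424271_at from 10.4 to 38.5, 1451289_at from 1.26 to 30.2 and 1451917_a_at from 1.28 to 3.01. The groups of 1423125_at overlapped in the comparisons of the combination and of dexamethasone with vehicle. In 1451917_a_at all 5 treated arrays were below both vehicle arrays, as in 1450863_a_at, with r of 0.53 between the log2 values of this pair, at signals under the pseudocount on all 7 arrays. For 1451289_at the lowest array was the DBZ array and the highest was a combination array. Pearson's r between the log2 values of 2 Dclk1 probe sets ran from -0.26 to 0.65 over 15 pairs, with a median of 0.19. The tested Dclk1 result rests on 1 of 6 probe sets, and which transcripts each probe set reads was not analysed here.

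Pou2f3 (1450507_at), the transcription factor that specifies tuft cells, was under the filter and was not tested. Its signals were 14.0 and 22.7 in the combination arrays, 32.3 in the DBZ array and 30.4 and 11.95 in the dexamethasone arrays, against 35.9 and 42.1 in the vehicle arrays. All 5 treated arrays were below both vehicle arrays, and the 2 dexamethasone arrays differed from each other by more than the vehicle arrays did.

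**Figure D2:**
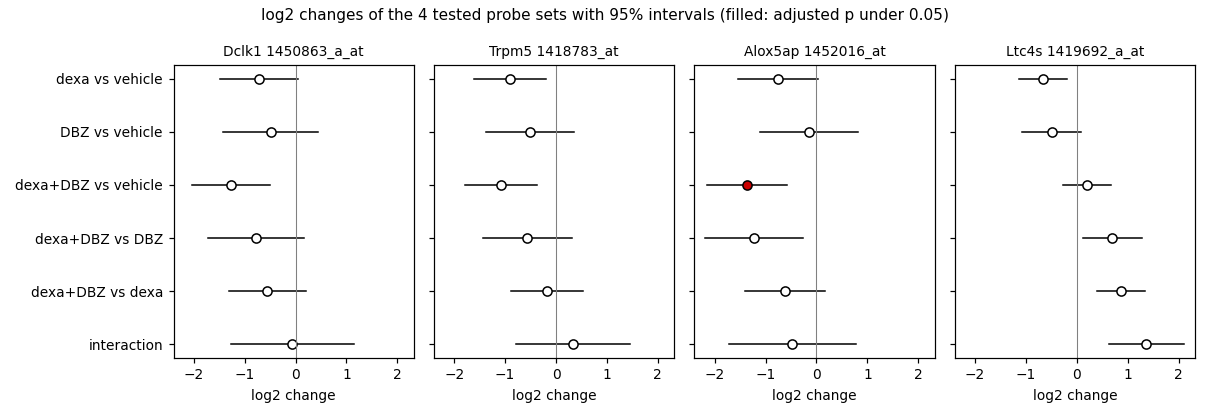
Differences in log2(signal + 12.46) of the 4 tested probe sets (points) with 95% intervals from limma (lines) in the 6 comparisons; a filled point has an adjusted p under 0.05. The single filled point is Alox5ap in the combination against vehicle at -1.36, and the Ltc4s points lie above 0 in the combination against DBZ (0.70), against dexamethasone (0.87) and in the interaction (1.37).

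Counted over the 4 tested members, 1 passed the threshold in the combination against vehicle, lower, where 7.5% of all tested probe sets passed and 3.06% passed lower. None passed with dexamethasone against vehicle (12% of all tested probe sets) or with DBZ against vehicle (8.34%). The combination passed for 0 against DBZ (0.33% of all tested) and 0 against dexamethasone (0.0293%), and the interaction for 0 (4.01%). At an unadjusted p under 0.05 in limma, 3 of 4 passed in the combination, 0 with DBZ and 2 with dexamethasone, each against vehicle, where 24.2%, 26.3% and 26.8% of all tested probe sets did. The same count was 2 for the combination against DBZ (12.3%), 1 for the combination against dexamethasone (9.28%) and 1 for the interaction (20.5%). The median log2 difference from vehicle of the 4 was -1.17 in the combination, -0.49 with DBZ and -0.73 with dexamethasone, beside -0.04, -0.05 and 0.02 over all tested probe sets. Dclk1 and Trpm5 passed the filter through their vehicle arrays, so these medians and the counts against vehicle are no support for a fall.

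Over all 11 probe sets, tested or not, the combination arrays were below both vehicle arrays in 6 and above them in 1, which was Ltc4s. Of all probe sets other than controls, 28% were below in this way and 20.2% above. The single DBZ array was below both vehicle arrays in 8 of 11 (41.9% of all probe sets) and the dexamethasone arrays in 9 of 11 (25.7%). Neither was above both in any of the 11, beside 33.4% of all probe sets with DBZ and 23.8% with dexamethasone. All 5 treated arrays lay below both vehicle arrays in 6 of the 11: both Trpm5 probe sets, Alox5ap, Pou2f3 and the Dclk1 probe sets 1450863_a_at and 1451917_a_at. Of all probe sets 13.8% had that order. Between the combination and DBZ, 5 of 11 were lower without overlap (36.9% of all) and 4 higher (35%). Between the combination and dexamethasone, 3 of 11 were lower without overlap (23.8% of all) and 4 higher (15.7%).

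Among themselves, the tested members had Pearson's r over the 7 arrays of 0.93 for Dclk1 with Alox5ap, 0.85 for Dclk1 with Trpm5 and 0.76 for Trpm5 with Alox5ap. Ltc4s had r of -0.20 with Dclk1, 0.084 with Trpm5 and -0.23 with Alox5ap. The points share groups, scaling and the gap between vehicle and treated arrays, so these values describe the arrays and carry no test. Of 12560 probe sets with another gene name, the closest in pattern to Dclk1 were those of Mettl17 (r = 0.98), Virma (0.97) and Ddrgk1 (0.97). For Trpm5 they were Slc19a1 (0.99), Saraf (0.99) and Chfr (0.98), and for Alox5ap Mknk2 (0.99), Smc6 (0.99) and Marchf2 (0.98). Ltc4s was closest to Cyb5r3 (0.98), Slc25a45 (0.97) and Marcks (0.97). With 7 arrays, none of the 4 had another tested member among its closest 3.

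Companion genes of tuft cells were read from 5 lists: taste transduction, eicosanoid synthesis and response, tuft cell regulators, a tuft cell signature and the type 2 immune circuit. The lists held 75 genes, of which 65 had a probe set and 37 were tested. In the combination against vehicle 3 of 37 fell and 0 rose, a share of 8.11% beside 7.5% of all tested probe sets. DBZ against vehicle gave 1 higher and 0 lower (2.7% beside 8.34%), and dexamethasone against vehicle 2 higher and 3 lower (13.5% beside 12%). The median difference of the 37 was -0.14 in the combination, 0.06 with DBZ and -0.12 with dexamethasone.

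In the combination against vehicle, the genes that fell were Lrmp, Ptpn18 and Spib. Lrmp, a membrane protein of the endoplasmic reticulum that binds inositol trisphosphate receptors and is also abundant in B cells, had signals of 33.1 and 19.3 in the combination arrays, 47.0 in the DBZ array and 19.8 and 28.4 in the dexamethasone arrays, against 79.9 and 108 in the vehicle arrays. Its differences from vehicle were -1.47 ± 0.34 in the combination (adjusted p = 0.0288) and -1.54 ± 0.34 with dexamethasone (adjusted p = 0.0173). All combination and dexamethasone arrays of Lrmp were under the filter, which it passed through its high vehicle arrays. That favours differences below vehicle, so these Lrmp calls are no support for a fall. The tyrosine phosphatase Ptpn18 read 128 and 129 in the combination arrays, 165 in the DBZ array and 197 and 137 in the dexamethasone arrays, against 248 and 290 in the vehicle arrays. It fell by 0.99 ± 0.22 in the combination (adjusted p = 0.0279). Spib, an Ets factor of tuft cells, M cells and B cells, read 37.4 and 31.6 in the combination arrays, 89.3 in the DBZ array and 25.4 and 30.2 in the dexamethasone arrays, against 78.8 and 97.0 in the vehicle arrays. Spib was -1.09 ± 0.29 in the combination (adjusted p = 0.0473) and -1.31 ± 0.29 with dexamethasone (adjusted p = 0.0171), and the DBZ array lay between the vehicle arrays. All combination and dexamethasone arrays of Spib were under the filter too. It passed the filter through its high vehicle and DBZ arrays, so these Spib calls are no support for a fall either. Avil, the actin-binding protein advillin and a marker of tuft cells, read 18.9 and 27.5 in the combination arrays, 96.3 in the DBZ array and 53.0 and 25.9 in the dexamethasone arrays, against 89.6 and 58.4 in the vehicle arrays. Its difference of -1.26 ± 0.36 in the combination missed the threshold (adjusted p = 0.0627). Espn, of the same list, differed the other way by 0.79 ± 0.24 and missed it too (adjusted p = 0.0748).

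With dexamethasone alone, Il33, an alarmin of the type 2 circuit, fell by 0.86 ± 0.25 (adjusted p = 0.0486), and its signals were 300 and 204 in the dexamethasone arrays, against 379 and 558 in the vehicle arrays. Krt18, a keratin of the whole epithelium that is high in tuft cells, rose by 0.78 ± 0.19 with dexamethasone (adjusted p = 0.0285) on the scaled signals, and turned to -0.21 on intensities as deposited. Itpr3, the inositol trisphosphate receptor of taste signalling, rose by 0.71 ± 0.18 (adjusted p = 0.0297) and turned to -0.26 as deposited. Espn, an actin-bundling protein of microvilli, was the one companion gene to pass with DBZ, higher by 1.33 ± 0.29 (adjusted p = 0.0255), with a signal of 1595 in the DBZ array against 807 and 487 in the vehicle arrays. These calls rested on few arrays. All 5 dexamethasone calls were lost without dexamethasone array 1 (adjusted p 0.0550 to 0.208) and without vehicle array 2 (0.0819 to 0.232). Il33 and Krt18 were also lost without dexamethasone array 2 (0.247 and 0.137). Itpr3 and Il33 were lost without combination array 1 (0.0603 and 0.0842) or 2 (0.0608 and 0.0845), and Itpr3 without vehicle array 1 (0.0738). The 3 combination calls were lost without combination array 1 (0.0811 to 0.144), combination array 2 (0.135 to 0.199), vehicle array 1 (0.0574 to 0.0857) or vehicle array 2 (0.113 to 0.162). Spib was also lost without dexamethasone array 1 (0.0549), dexamethasone array 2 (0.0578) or the DBZ array (0.0529). Espn was lost without combination array 1 (0.0524), combination array 2 (0.0535) or vehicle array 2 (0.0578).

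**Figure D3:**
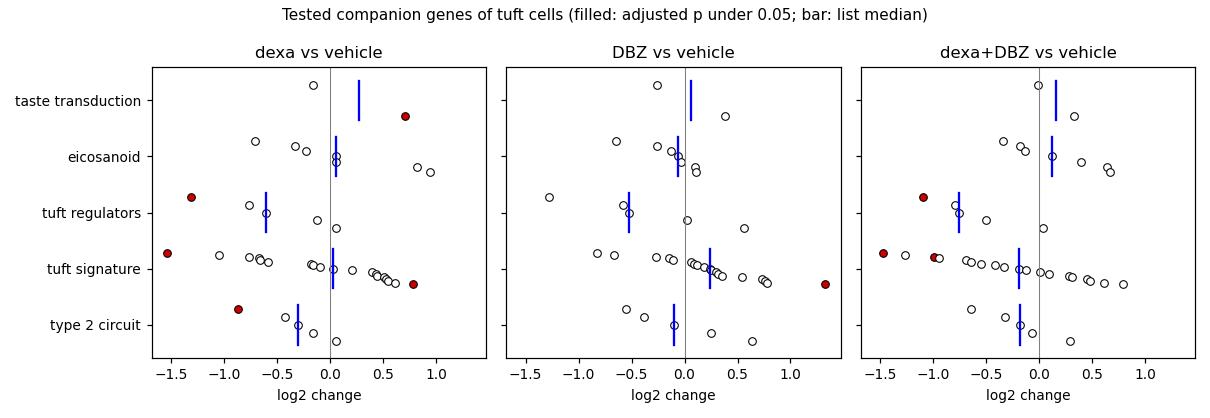
Differences in log2(signal + 12.46) from vehicle of the tested genes of the 5 companion lists for dexamethasone (dexa), DBZ and the combination (dexa+DBZ); each point is 1 gene, a filled point has an adjusted p under 0.05 and the blue bar is the list's median. Filled points lie on both sides of 0 with dexamethasone (2 higher, 3 lower), on the high side with DBZ (1) and on the low side with the combination (3).

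By list, the tuft cell regulators had 1 of 5 tested genes past the threshold in the combination against vehicle, lower (Spib), with a median of -0.76. By sign alone, 4 of the 5 were lower and 1 higher. Of all tested probe sets, 3.06% passed lower in this comparison. The tuft cell signature had 2 of 19 past the threshold, both lower (Lrmp and Ptpn18), with a median of -0.19. By sign alone, 11 of the 19 were lower and 8 higher. No gene of the taste transduction, eicosanoid or type 2 lists passed in the combination, out of 2, 7 and 5 tested. Among the eicosanoid genes, the phospholipase Pla2g4a, which frees arachidonic acid, differed by 0.64 ± 0.25 (adjusted p = 0.148) and the cyclooxygenase Ptgs2 by 0.66 ± 0.37 (adjusted p = 0.297) in the combination against vehicle. Several genes that define tuft cells were too dim to test. Gfi1b, a tuft cell transcription factor, ranged from 2.16 to 13.5 over the 7 arrays, Il25 from 0.994 to 5.06, the G protein subunits Gng13 and Gnb3 from 2.20 to 15.7 and from 9.39 to 49.4, the phospholipase Plcb2 from 4.47 to 36.0, and the prostaglandin D synthase Hpgds from 1.23 to 35.3. Siglecf, a surface lectin of tuft cells and eosinophils, read 19.4 and 10.9 in the combination arrays, 12.04 in the DBZ array and 13.2 and 14.6 in the dexamethasone arrays, against 51.4 and 41.6 in the vehicle arrays. Siglecf was named after its values were seen, was under the filter and was not tested. Of all probe sets, 13.8% had every treated array below both vehicle arrays. The other dim genes named here did not share 1 order. The highest array was a combination array for Gnb3, Plcb2 and Il25 and the DBZ array for Gng13. It was a dexamethasone array for Gfi1b. For Hpgds, as for Siglecf, every treated array was below both vehicle arrays, which read 35.3 and 22.2. Among the untested genes of the lists, Hmx2, Hmx3, Ascl2, Bmx, Matk and Il4 also had that order. They too were named after their values were seen, and the remaining untested genes of the lists did not have it.

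Markers of other cell types were summed per array, because Alox5ap, Ltc4s, Lrmp and Spib are not specific to tuft cells. Mast cell markers summed to 97.6 to 181 in the combination arrays, 163 in the DBZ array and 203 in both dexamethasone arrays, against 174 to 177 in the vehicle arrays. Of their 10 genes 9 were under the filter. The exception was the receptor Kit, which read 50.5 and 62.2 in the combination arrays, 77.7 in the DBZ array and 112 and 78.2 in the dexamethasone arrays, against 36.8 and 51.2 in the vehicle arrays. Kit was the brightest of the 10 in every treated array. The mast cell sum therefore leans on Kit and does not describe the other 9 genes, which were dim. Myeloid markers summed to 1816 to 2096 in the combination arrays, 1834 in the DBZ array and 2407 to 2800 in the dexamethasone arrays, against 1390 to 2325 in the vehicle arrays. The part of mast or myeloid cells in the values of Alox5ap and Ltc4s was not tested. B cell markers, a list added after values were seen, summed to 66.2 to 164 in the combination arrays, 418 in the DBZ array and 91.6 to 102 in the dexamethasone arrays, against 122 to 308 in the vehicle arrays. The DBZ array had the highest B cell sum, and the part of B cells in the values of Spib and Lrmp was not tested.

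Markers of the other tissue layers also differed between the groups. Smooth muscle genes summed to 14058 to 15121 in the combination arrays, 19034 in the DBZ array and 15302 to 22265 in the dexamethasone arrays, against 6598 to 9162 in the vehicle arrays. Fibroblast genes summed to 5720 to 5839 in the combination arrays, 5660 in the DBZ array and 5844 to 7394 in the dexamethasone arrays, against 1668 to 3354 in the vehicle arrays. Epithelial genes summed to 31179 to 39259 in the combination arrays, 36335 in the DBZ array and 29201 to 32223 in the dexamethasone arrays, against 28775 to 30251 in the vehicle arrays. Muscle and fibroblast sums were higher in all treated arrays, and no treated array had an epithelial sum below the lower of the vehicle arrays. The part of muscle, fibroblasts or gut position in the members' differences was not tested in any comparison.

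**Figure D4:**
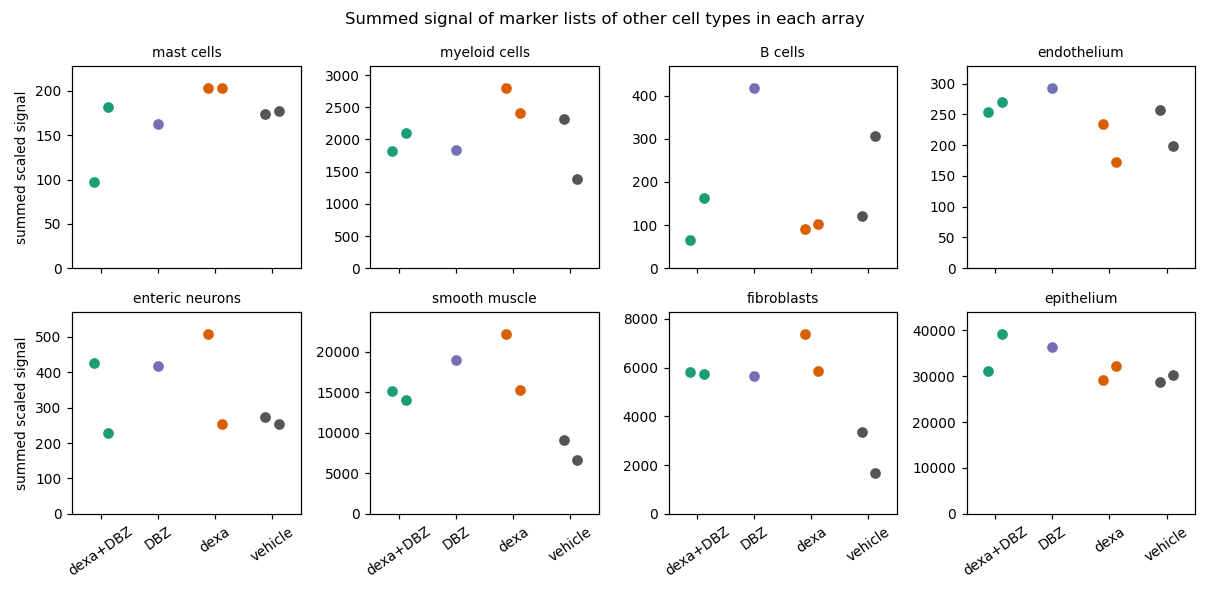
Summed scaled signal of 8 marker lists of other cell types in each array of the combination (dexa+DBZ), DBZ, dexamethasone (dexa) and vehicle groups; each point is 1 array and each axis starts at 0. Smooth muscle and fibroblast sums are lowest in the vehicle arrays (6598 to 9162 and 1668 to 3354), while mast cell and myeloid sums of the vehicle arrays lie within or near the range of the treated arrays. Kit is the brightest mast cell gene in every treated array, so the mast cell sum does not describe the dim genes of that list.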

How the data were processed

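Total RNA of small intestine from 4 groups was labelled as biotinylated cRNA and hybridised to Affymetrix arrays. The deposited values are intensities per probe set, made by the authors with MAS5, per the submitters' processing notes, with no version of MAS5 given in the sources used here. No detection calls were in the table, and no sample column was left out. The planned fit with 2 DBZ arrays was replaced by one in which the DBZ columns make 1 array, whose spread was assumed to equal that of the other groups.

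From these values, all arrays were brought to 1 trimmed mean, 250, leaving out 64 control probe sets and 2% of values at each end. A pseudocount of 12.46, the 20th percentile of all signals, was added before log2. A mean signal of 39.14, the 40th percentile, was needed for a test. A model of 4 group means was fitted to 13637 probe sets with limma 3.58.1 in R 4.3.3 (moderated test with intensity trend, 2-sided, Benjamini-Hochberg over all tested probe sets, threshold 0.05). Residual degrees of freedom were 3 and prior degrees of freedom 6.85. The code was tested on simulated data. Figures and sequence searches used Python 3.11.15. Nothing beyond the labels says how replicates were made, so p-values measure the spread between arrays, and the number of arrays limits the precision.

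Of all probe sets 20393 had 1 gene symbol, 691 several and 1606 none. The members and gene lists were chosen with earlier results of these data known, and the B cell list after values were seen. Named were all member probe sets, up to 4 genes per companion list and comparison by smallest p (each gene by its brightest probe set), markers of other cell types, and the 3 genes most correlated with each tested member. Alternatives covered scaling, pseudocount, filter, trend, samples fitted, the replicate block and leaving out each array. Same-numbered arrays correlated by 0.11, 0.05 and -0.12 in their deviations from group means, so numbers were not taken as pairs.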

Additional observations from a re-analysis of the deposited data

Results flagged for a closer look

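The Dclk1 probe set 1451917_a_at was picked out because the arrays of dexamethasone moved in opposite directions with and without DBZ. Its signals were 1.81 and 2.09 in the combination arrays, both above the 1.47 of the DBZ array, and 1.66 and 1.28 in the dexamethasone arrays, both below the 3.01 and 2.66 of the vehicle arrays. The difference between these effects was 0.18 on the scale of log2(signal + 12.46). It was not tested, because the probe set was far under the filter.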

How the results depend on the processing

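Scaling, pseudocount, filter, trend, the samples fitted and each array were varied in turn, and 2 alternatives, without the DBZ array and without the vehicle arrays, were chosen after seeing the data. The members past the threshold for dexamethasone against vehicle (0) became 4 on intensities as deposited, 1 with quantile normalisation, 1 with no intensity trend and 2 with both DBZ columns as separate arrays. For DBZ against vehicle (0) they became 3 as deposited and 1 with both DBZ columns. For the combination against vehicle (1) they became 4 as deposited, 0 with a pseudocount of 1, 0 with no filter, 2 with no trend, 2 with only the groups compared, 3 with both DBZ columns, and 0 to 2 when 1 array was left out. For the combination against DBZ (0) they became 1 with both DBZ columns. The interaction (0) gave 1 each as deposited, with quantile normalisation, with a pseudocount of 1 and with both DBZ columns. Signs turned for Ltc4s in the combination against vehicle as deposited (-0.74), for Krt18 (-0.21) and Itpr3 (-0.26) with dexamethasone as deposited, for the Alox5ap interaction as deposited (0.44), and for the Dclk1 interaction as deposited (0.83), with a pseudocount of 64 (0.029), and without dexamethasone replicate 1 (0.28, the highest when 1 array was left out, the lowest being -0.40), combination replicate 2 (0.02) or vehicle replicate 1 (0.15). As deposited, the medians of all tested probe sets shifted to -0.92 with dexamethasone, -0.998 with DBZ and -0.99 with the combination, each against vehicle, which is the gap in trimmed means. Other causes were not tested. With the replicate block, fitted without the DBZ array, the counts were 0 for dexamethasone against vehicle, 1 for the combination against vehicle (Alox5ap, adjusted p = 0.0414) and 0 for the combination against dexamethasone, none changed, while Il33 with dexamethasone (0.0720) and Spib with the combination (0.0736) lost their calls. For the comparisons with DBZ and the interaction no block could be fitted, since DBZ had 1 array. Companion calls ranged from 0 to 28 with dexamethasone, 0 to 23 with DBZ and 0 to 32 with the combination, the highest all as deposited. Dim signals without detection calls, and 7 arrays, limit all member results.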
